A study of Mus musculus with 24 samples.

Results

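The RNA change from metaphase II (MII) oocytes to late 1-cell (L1C) embryos was read from the input RNA-seq libraries of the mouse maternal-to-zygotic transition series, which are the libraries made without m6A immunoprecipitation. These are 6 of the 24 libraries of the series, 3 from MII oocytes and 3 from L1C embryos, and they were chosen by the stage and the input mark in their labels. Both groups were wild-type B6D2F1 (C57BL/6J x DBA/2N) without any other treatment than hormonal superovulation of the females. MII oocytes were collected unfertilized from the oviducts and freed of cumulus cells with hyaluronidase. L1C embryos came from females mated with B6D2F1 males, were collected as zygotes with both pronuclei and were grown in KSOM medium until late in the first cell cycle. How many females gave the oocytes or embryos of a library is not stated in the sources used here, and the L1C group differs from the MII group by fertilization and by culture together. The 3 input libraries of late 2-cell (L2C) embryos took part only in the estimate of the spread between replicates and are given as a later time point where they help a reader.

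A fully grown oocyte stops transcription and lives on stored maternal mRNAs, many of them held silent with short poly(A) tails. Fertilization releases the metaphase arrest, sets off translation and decay of stored mRNAs, and in the mouse is followed by a first, weak and little selective wave of transcription in the 1-cell embryo, called minor zygotic genome activation (minor ZGA). The main wave, major ZGA, comes in the 2-cell embryo. Retrotransposons and tandem gene families such as Dux, Zscan4 and Usp17l are known to be among the first transcribed sequences.

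The deposited estimated counts summed to between 18557354 and 24308196 per MII library and to between 18969651 and 24032376 per L1C library. At least 1 count was assigned to 21000 to 21845 genes in MII libraries and to 24894 to 25870 genes in L1C libraries, so more genes were detected in each L1C library than in any MII library. Levels are given as counts per 1e6 counts (CPM) on the scale of TMM, the scaling of edgeR that sets most genes equal between libraries. They are shares of the sequenced RNA, and the amount of RNA per embryo was not measured. In a bulk library fewer cells of a type and less RNA per cell cannot be told apart. The labels give poly(A) RNA as the molecule but name a kit for total RNA, and the methods reverse transcribe from an oligo-dT primer. If the libraries were made from poly(A) tails, a longer tail and a higher amount of an RNA cannot be told apart either. The counts were made against whole gene spans with their introns. Reads from introns or from repeats inside a span therefore count toward the gene, and a read from a stretch covered by more than 1 gene may be given to any of them. The labels do not say that replicates came from separate collections, so p-values measure the spread between these libraries, which may be technical.

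Of 55471 genes in the table, 19903 had enough counts to be tested. At L1C 6356 genes (31.9%) were higher than at MII and 4839 genes (24.3%) were lower, at an adjusted p under 0.05 in the quasi-likelihood test of edgeR. With a log2 change of more than 1 as well, 4830 genes (24.3%) were higher and 2225 genes (11.2%) were lower. The median log2 change over all genes tested was 0.16. In 34% of all genes tested the 3 L1C libraries all lay above the 3 MII libraries, and in 27.2% they all lay below. Among the 15279 mRNAs, here the protein-coding genes, 31.5% were higher and 27.6% were lower, with a median log2 change of 0.09.

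**Figure D1:**
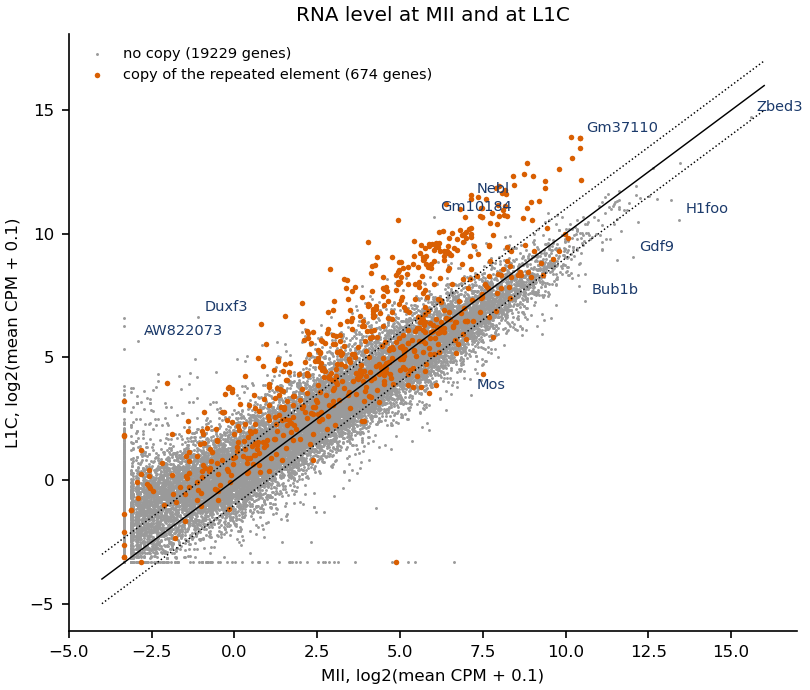
Mean level of each of the 19903 genes tested in the 3 MII inputs (horizontal axis) and in the 3 L1C inputs (vertical axis), as log2 of mean CPM plus 0.1. The solid line marks equal levels and the dotted lines a log2 difference of 1. Orange points are the 674 genes whose span holds a copy of the repeated element of Gm37110, and many of them form a band above the upper dotted line. Zbed3, H1foo, Gdf9, Bub1b and Mos lie under the solid line.

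The direction of change followed the level in the oocyte. Of the 2022 mRNAs with more than 100 CPM at MII, 66.2% were lower at L1C and 10.2% were higher, and their median log2 change was -0.61. Of the 4811 mRNAs with 10 to 100 CPM at MII, 41.9% were lower and 22.8% were higher. The balance turned at 1 to 10 CPM, where 17.5% of 4479 mRNAs were lower and 32.1% were higher. These classes were set on the MII libraries that the change itself uses, and most mRNAs with less than 0.1 CPM at MII could be tested only because they were higher later, so the shares are a description. The abundant RNAs of the oocyte were thus mostly lower at L1C, and the gains were mostly of RNAs that were scarce in the oocyte.

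Gene classes differed in their balance. Of the 1462 lincRNAs tested 43.0% were higher and 6.498% were lower, with a median log2 change of 0.85. Unprocessed pseudogenes, which arise from tandem duplication and keep introns, had 47.0% of 230 members higher and 5.65% lower. Processed pseudogenes, which are copies of spliced mRNAs, had the opposite balance, with 17.6% of 933 members higher and 23.6% lower. Antisense genes had 31.6% of 966 members higher and 16.5% lower, but most of them overlap the gene on the other strand. TEC genes, annotated loci whose transcripts await experimental proof, had 28.6% of 227 members higher, and 44.3% of the 97 that overlap no other gene. Protein-coding genes held 93.8% ± 0.161 of CPM at MII (SD, n = 3) and 83.3% ± 0.455 at L1C. The share of TEC genes was 0.846% ± 0.0104 at MII and 6.52% ± 0.163 at L1C, and that of lincRNAs 2.35% ± 0.186 and 4.78% ± 0.220. The 3 L1C libraries did not overlap the 3 MII libraries in any of these shares. The gains in these summed shares lay in genes that hold a copy of the repeated element described below, while the counts of lincRNAs did not, since 572 of the 629 higher lincRNAs hold no copy. The 17 TEC genes with a copy summed to 8046 CPM at MII and 65046 CPM at L1C and the 210 without one to 810 and 773 CPM, and the 69 lincRNAs with a copy summed to 2932 and 29215 CPM and the 1393 without one to 21641 and 19106 CPM. Of mRNAs under 5 kb 27.5% were higher and of those over 100 kb 35.2%, but 29.7% and 31.2% without overlap and without a copy. By exon number 28.1% to 32.9% were higher, and 23.7% of mRNAs with 1 exon and 30.5% with over 10 were lower. Of the 2008 mRNAs with at most 5% of their span in exons 39.2% were higher, against 27.3% of the 2947 with more than 40%. Without overlap and without a copy these shares were 38.3% and 30.1%.

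**Figure D2:**
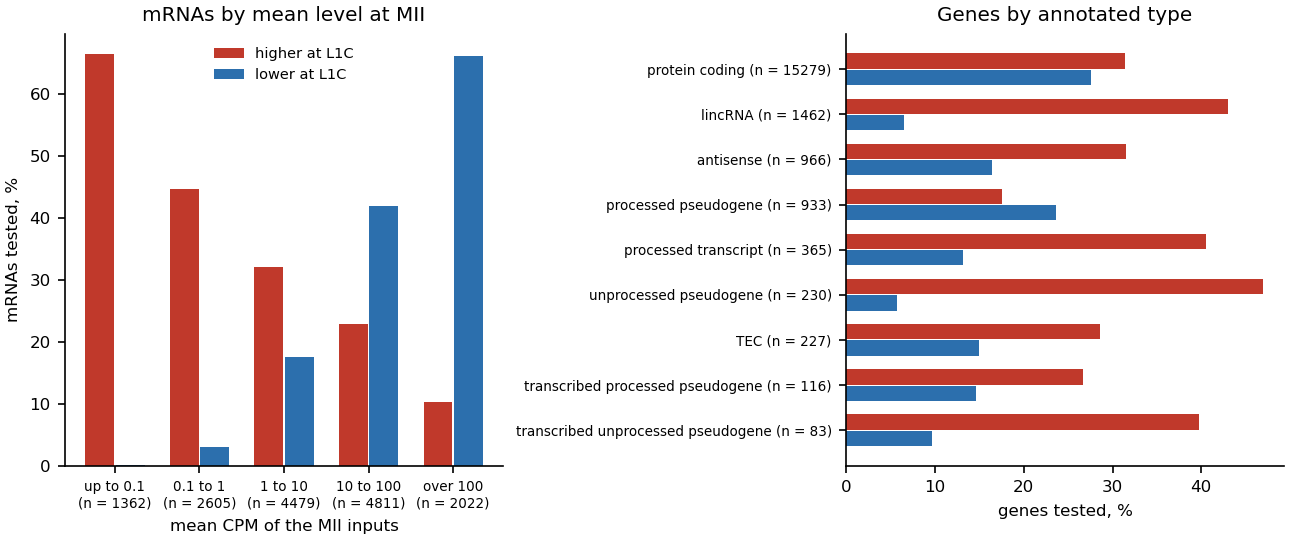
Left, percent of mRNAs higher (red) and lower (blue) at L1C than at MII, by the mean CPM of the MII inputs. The share that is lower goes up from 0.147% in the lowest class to 66.2% in the highest. Right, the same percents for genes by annotated type, with the number tested in brackets. lincRNAs and unprocessed pseudogenes have the widest gap between higher and lower.

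Many of the largest gains were of genes that hold a copy of 1 repeated element. Gm37110, a TEC gene of 1628 bases on chromosome 1 (GRCm38, chr1:32485315-32486942, plus strand), had 1406, 1355 and 1361 CPM in the MII libraries and 15830, 14390 and 14350 CPM in the L1C libraries, a log2 change of 3.43 ± 0.11 (SE, adjusted p = 6.08e-11). All L1C libraries lay far above all MII libraries. Its whole span is soft-masked as repeat in the reference genome, and it begins and ends with the same 139 bases (chr1:32485315-32485453 and chr1:32486804-32486942). Direct terminal repeats around an internal part are the layout of a long terminal repeat retrotransposon. The repeat is shown because its 2 copies bound the element and because genes that hold it alone are counted apart below, with the letters AATAAA, the usual polyadenylation signal, in capitals.

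terminal direct repeat of Gm37110: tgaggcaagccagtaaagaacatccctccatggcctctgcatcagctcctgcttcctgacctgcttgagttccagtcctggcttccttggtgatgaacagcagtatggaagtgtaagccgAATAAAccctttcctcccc

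The internal part was found at 2454 places of the genome with a median identity of 93.9%, and the terminal repeat alone at 24549 places. Gm44183 on chromosome 2 (chr2:38564727-38566354) had the same value as Gm37110 in every library, so the reads of the copies could not be assigned to a place. A gene was taken to hold a copy when at least 300 internal bases matched inside its span at 90% identity or more. This element was picked after the values had been seen, and the shares below carry no test.

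Of the 674 genes tested that hold a copy, 459 (68.1%) were higher at L1C and 68 (10.1%) were lower, with a median log2 change of 1.53. Of the 16517 genes with neither an internal copy nor a terminal repeat 29.98% were higher and 25.3% were lower. The share of higher genes was 67.0% of the 573 genes with 1 copy and 74.3% of the 101 genes with more. Genes with only a terminal repeat stood close to the rest, with 34.8% of 2712 higher and 21.8% lower. A copy on the strand of the gene or on the other strand made little difference (68.8% of 279 genes and 66.3% of 368 genes higher). Of mRNAs over 100 kb 66.3% of the 312 with a copy were higher and 30.4% of the 2037 without one.

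The summed level of the genes with a copy was 53525, 51393 and 50586 CPM in the MII libraries and 282931, 261787 and 266458 CPM in the L1C libraries. A mean of 51835 ± 1518 CPM (SD, n = 3) thus stood against 270392 ± 11107 CPM, without overlap between the stages. Genes with only a terminal repeat summed to 126612 ± 1161 CPM at MII and 103471 ± 4576 CPM at L1C. In the L2C inputs, which were not part of the comparison, the sum over genes with a copy was 192642 ± 2922 CPM.

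**Figure D3:**
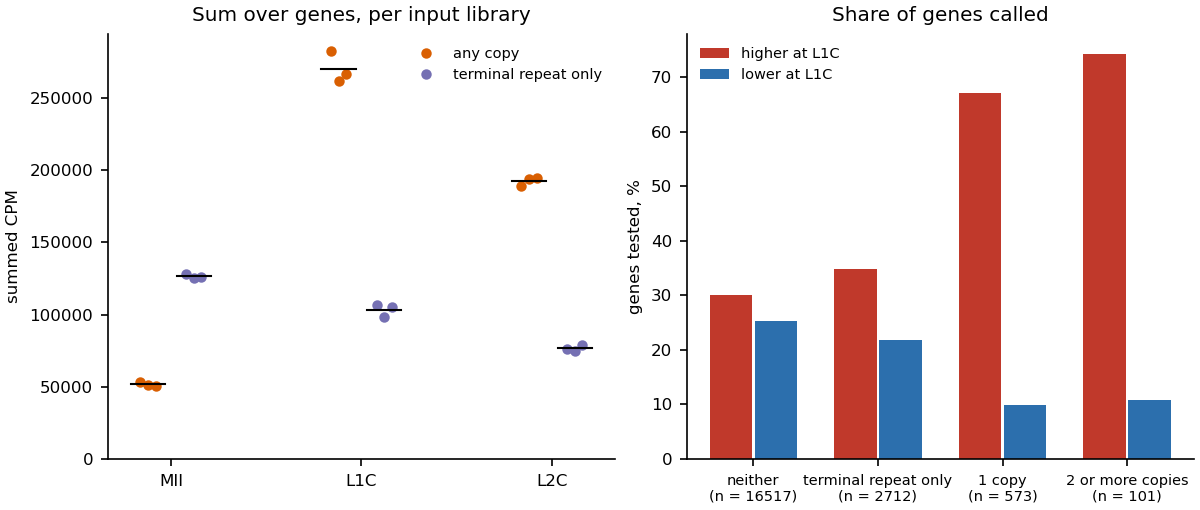
Left, summed CPM over genes with a copy of the repeated element (orange) and over genes with only its terminal repeat (purple), for each of the 3 input libraries per stage, with black lines at the means. The orange points sit between 50586 and 53525 CPM at MII and between 261787 and 282931 CPM at L1C. Right, percent of genes tested that were higher (red) or lower (blue) at L1C, by the number of copies in the gene span. The share higher goes from 29.98% without the element to 74.3% with 2 or more copies.

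Many mRNAs with the smallest p belonged to this group. Of the 1029 mRNAs that were higher with a log2 change over 1, no overlap between the groups and at least 10 CPM, 221 hold a copy. Among genes of any type that were higher, the 20 with the smallest p all hold a copy. Nebl, the gene of a nebulin-like muscle protein, spans 387556 bases on chromosome 2 and had 156, 136 and 130 CPM at MII and 2956, 2476 and 2732 CPM at L1C (log2 change 4.27 ± 0.13, SE). Gucy1a2, a subunit of soluble guanylate cyclase, had 10.1, 10.6 and 11.3 CPM at MII and 164, 162 and 160 CPM at L1C (3.93 ± 0.12). Ash2l, a subunit of H3K4 methyltransferase complexes, had 359, 340 and 320 CPM at MII and 5809, 4910 and 4938 CPM at L1C (3.94 ± 0.13). In each of the 3 genes every L1C library lay above every MII library, and the adjusted p was 6.08e-11. Nebl, Gucy1a2, Myo1f, Vamp9 and Ano2 were the 5 mRNAs with the smallest p, and each holds 1 or 2 copies, whereas Ash2l, with 1 copy, was chosen after its values were seen. Gm43915, an antisense gene with 2 copies, had 1153 ± 108 CPM at MII and 15550 ± 479 CPM at L1C (SD, n = 3). Whether the added reads of these genes came from the copies or from their exons was not tested, since the files hold 1 value per gene. In the gene lists that follow, the members with a copy are Obox1 and Obox3, Srsf4 among the splicing genes, Ndufaf2 of oxidative phosphorylation, Pola1 and Orc5 of DNA replication, Ythdc2 of the m6A genes, Nup210 of the nuclear pore and Kdm5d among the Y-linked genes.

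Among mRNAs without a copy and without overlap with another gene, Dux was among those with the smallest p. The genes of this paragraph and the next were picked for this property after their values had been seen, most of them for a small p. Of those with at least 10 CPM at L1C, Gm3147, A430089I19Rik, AW822073 and Zscan4-ps2 had larger fitted log2 changes than Dux, but 0 to 2 counts in all at MII. Other genes of lower level also had larger ones. Duxf3, the annotated name of the homeodomain factor Dux that switches on 2-cell genes, lies on chromosome 10 (chr10:58229979-58232675, minus strand, 1 exon). It had 0.388, 0.150 and 0.564 CPM at MII and 79.5, 117 and 101 CPM at L1C, a log2 change of 8.08 ± 0.28 (SE, adjusted p = 7.7e-11), and stood at 6.27 ± 0.274 CPM (SD, n = 3) in the L2C inputs. All L1C libraries were far above all MII libraries. AW822073 (chr10:58222972-58224930) and Gm10807 (chr10:58227857-58228651), annotated next to Duxf3, were higher as well. AW822073 had 0.0431, 0 and 0.0564 CPM at MII, from 2 counts in all, and 33.5, 64.8 and 49.7 CPM at L1C, a ratio of 1489 (95% interval 412 to 12299, counting error only). Gm10807, a pseudogene, rose from 0.338 ± 0.165 to 29.7 ± 8.18 CPM (SD, n = 3). Dux and its neighbours are tandem copies, and their reads are hard to tell apart.

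Cdk1, the kinase that drives entry into M phase, had 2.28, 2.15 and 2.54 CPM at MII and 50.5, 41.2 and 52.9 CPM at L1C (4.38 ± 0.15, adjusted p = 8.08e-11), and 424 CPM at L2C. Gm10184, a single-exon gene on chromosome 17, had 68.0, 65.6 and 60.4 CPM at MII and 1879, 1479 and 1563 CPM at L1C (4.66 ± 0.16, adjusted p = 6.12e-11). Usp17lb, a deubiquitinase of the 2-cell Usp17l family, had 0.258, 0.1998 and 0.225 CPM at MII and 13.9, 11.5 and 13.1 CPM at L1C (5.77 ± 0.22, adjusted p = 8.79e-11). In all 3 genes the stages did not overlap. Atp6v1g1, a subunit of the proton pump of lysosomes, rose from 7.47 ± 0.296 to 98.2 ± 5.89 CPM (SD, n = 3), and Txndc9, a thioredoxin-like protein, from 17.7 ± 0.404 to 162 ± 8.68 CPM. Ss18l1, a chromatin remodeling cofactor, rose from 4.06 ± 0.438 to 64.5 ± 7.02 CPM. Unlike Cdk1 and Usp17lb, Atp6v1g1 and Ss18l1 had less at L2C than at L1C, with 19.9 and 8.89 CPM.

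The clearest losses were of RNAs that serve meiosis. Bub1b, whose product BubR1 is a spindle checkpoint kinase (chr2:118598211-118641591, plus strand), had 1648, 1506 and 1478 CPM at MII and 156, 144 and 167 CPM at L1C, a log2 change of -3.31 ± 0.12 (SE, adjusted p = 8.45e-11). Mos, the kinase that keeps the oocyte in metaphase II through the MAPK pathway, had 119, 151 and 153 CPM at MII and 8.46, 12.3 and 11.5 CPM at L1C (-3.71 ± 0.18, adjusted p = 9.34e-10). The stages did not overlap in either gene. Smc3, a cohesin subunit, had 174, 175 and 202 CPM at MII and 22.8, 18.8 and 17.4 CPM at L1C (-3.22 ± 0.14, adjusted p = 4.87e-10), although its span holds a copy of the repeated element.

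Losses of like size were found outside meiosis. Arrdc2, an arrestin-domain protein, fell from 630 ± 17.9 to 60.9 ± 13.2 CPM (SD, n = 3), and Slc44a2, a choline transporter-like protein, from 763 ± 49.6 to 95.9 ± 15.8 CPM. P4hb, the protein disulfide isomerase of the endoplasmic reticulum, fell from 285 ± 6.67 to 44.8 ± 6.65 CPM and was at 582 CPM again at L2C. Taldo1, the transaldolase of the pentose phosphate pathway, had 43.1, 61.7 and 71.6 CPM at MII and 2.20, 4.50 and 5.50 CPM at L1C (-3.87 ± 0.27, adjusted p = 5.23e-08) and 56.4 CPM at L2C. P4hb and Taldo1 were thus low at L1C only, among these 3 stages. Med20, a subunit of the Mediator complex that overlaps another gene, fell from 159.8 to 20.6 CPM. Among genes of other types Gm1070, a lincRNA that overlaps another gene, fell from 3002 ± 317 to 493 ± 71.9 CPM, and Gm12346, a transcribed pseudogene with an overlap, from 200.03 to 36.7 CPM.

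**Figure D4:**
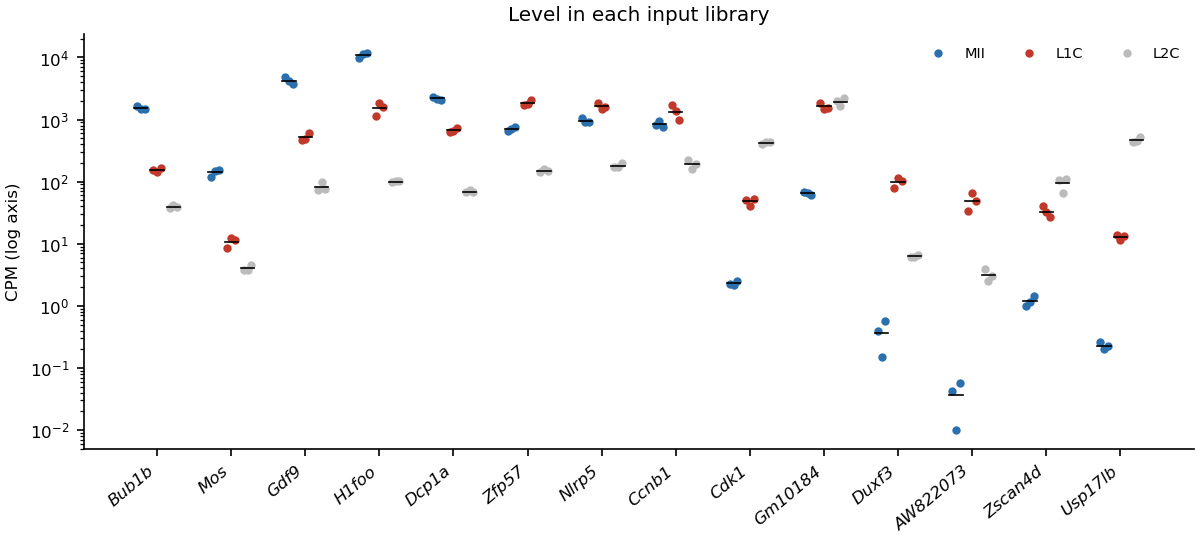
CPM on a log axis in each of the 3 input libraries of MII (blue), L1C (red) and L2C (grey) for 14 genes, with black lines at the means. A value of 0 is drawn at 0.01. Bub1b, Mos, Gdf9, H1foo and Dcp1a are lower at L1C than at MII in every library, and the other 9 genes are higher at L1C in every library.

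Some genes were all or nothing. Jph3, Lrrtm3, Cbfa2t3, Abraxas2 and 2 neighbours on chromosome 7 (Ate1 and Tacc2) had at least 10 CPM at MII and 0 in all 3 L1C libraries, and all 6 overlap another annotated gene. In the other direction 7 genes had 0 in all MII libraries and at least 10 CPM at L1C, 5 of them with an overlap, such as Gng3 and Samd10. Against a floor of 3 counts per library Gng3 was at least 634-fold higher and Samd10 at least 507-fold higher. Only Gm3147 and A430089I19Rik, both on chromosome 5 near 94 Mb, overlap no other gene, and they were at least 94.0-fold and at least 84.4-fold higher. Reads of overlapping spans can pass from one gene to the other, so a level of 0 in such a gene does not show that its RNA was gone.

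Gene lists were compared by the share of members called and by their median log2 change, beside 31.9% higher, 24.3% lower and 0.16 over all genes tested. They hold 865 genes in 28 lists, and no test was run on a list. The lists were not matched for the level at MII, with which the share lower went up. Of mRNAs with 10 to 100 CPM at MII 41.9% were lower (median -0.23), and of those with more than 100 CPM 66.2% (median -0.61). A list of abundant oocyte mRNAs can thus stand above 24.3% lower by its level alone.

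**Figure D5:**
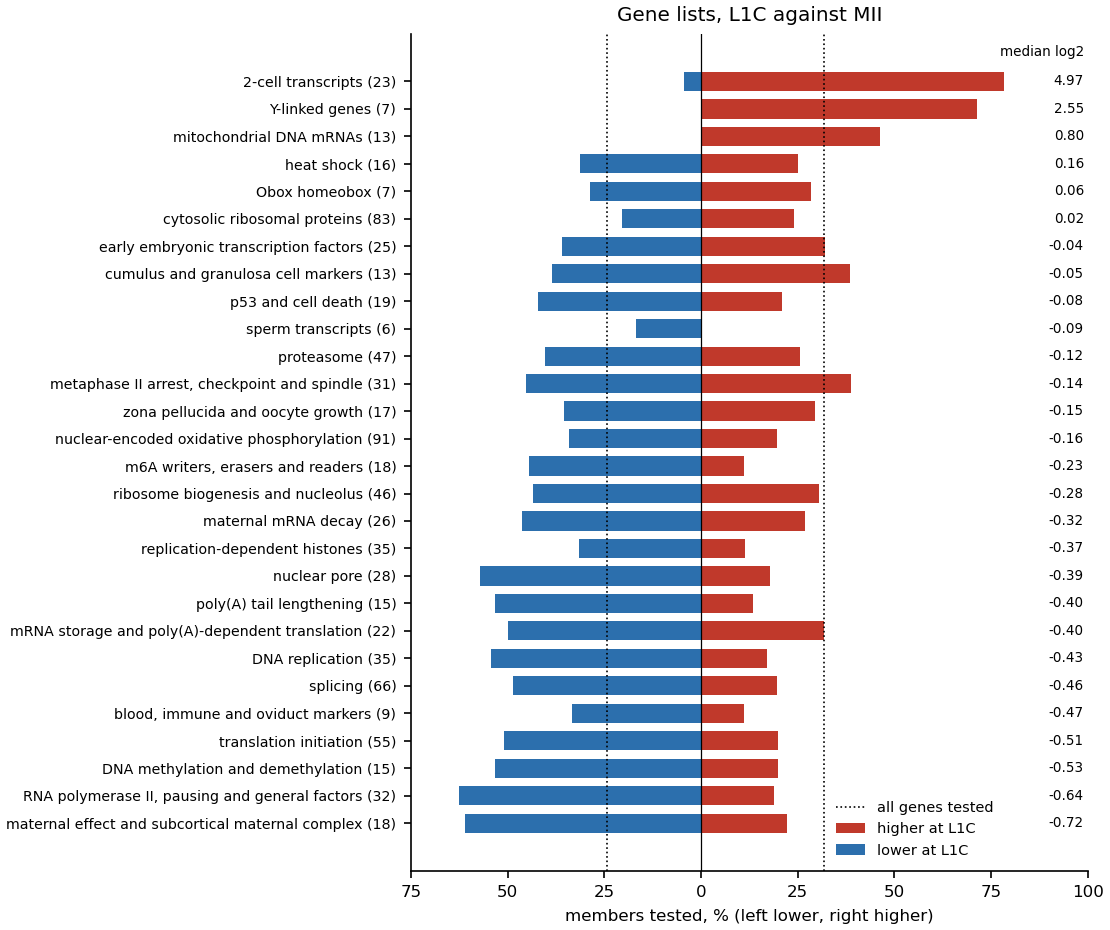
Percent of tested members higher (red, to the right) and lower (blue, to the left) at L1C than at MII for each of the 28 gene lists, with the number tested in brackets and the median log2 change at the right. Dotted lines mark 31.9% higher and 24.3% lower over all genes tested. The 2-cell, Y-linked and mitochondrial lists are at the top, and the maternal effect and RNA polymerase II lists at the bottom.

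Maternal effect genes are expressed by the mother and needed by the embryo, and several form the subcortical maternal complex under the egg membrane. Of 18 members tested 11 were lower and 4 were higher, with a median log2 change of -0.72, and their summed level was 67925 ± 1775 CPM at MII and 35883 ± 4549 CPM at L1C (SD, n = 3). Zbed3 and H1foo made up most of this sum and of its fall. Zbed3, a member of that complex with the most counts of any gene in these libraries, had 48490, 50420 and 49000 CPM at MII and 22470, 28710 and 29730 CPM at L1C (-0.87 ± 0.13, SE, adjusted p = 6.38e-05). H1foo, the linker histone of the oocyte, had 9750, 11450 and 11960 CPM at MII and 1129, 1826 and 1596 CPM at L1C (-2.87 ± 0.17, adjusted p = 6.78e-09). Padi6 fell from 1423 to 590.5 CPM and Dppa3, which protects the maternal genome from demethylation, from 1088 to 648 CPM. Members were not uniform. Zfp57, a zinc finger protein that keeps imprints, had 666, 701 and 762 CPM at MII and 1708, 1768 and 2078 CPM at L1C (1.38 ± 0.12, adjusted p = 3.74e-07), and Nlrp5, the core protein MATER, rose from 961 to 1627 CPM (0.76 ± 0.13, adjusted p = 0.000187). Nlrp14 and Npm2 rose as well, while Ooep, Tle6 and Khdc3 did not pass the test.

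Of 17 genes of the zona pellucida and oocyte growth 5 were higher and 6 were lower. Gdf9, a growth factor by which the oocyte instructs its follicle cells, had 4855, 4148 and 3675 CPM at MII and 471, 492 and 616 CPM at L1C (-3.01 ± 0.16, adjusted p = 3.68e-09). Its close relative Bmp15 had 2234, 2353 and 2406 CPM at MII and 3070, 2702 and 2731 CPM at L1C (0.28 ± 0.11, adjusted p = 0.0402). The pair thus moved in opposite directions, and in both genes the stages did not overlap. The zona genes split in the same way. Zp1 fell from 347 to 80.5 CPM and Zp3 from 159 to 55.8 CPM, while Zp2 rose from 53.3 to 83.3 CPM. Astl, the protease ovastacin of the cortical granules, fell from 293 to 62.8 CPM, and Nobox, an oocyte transcription factor, rose from 361 to 681 CPM. Cd9, the tetraspanin of sperm-egg fusion, rose from 20.4 to 44.2 CPM and overlaps another gene.

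The list of metaphase II arrest, spindle checkpoint and spindle genes had 12 of 31 members higher and 14 lower, with a median of -0.14. Among the 17 members without overlap and without a copy the median was 0.24, so the sign of the median rests on overlapping genes. Besides Bub1b and Mos, the losses included Espl1, the protease separase (376 to 112 CPM), Aurkc, the meiotic Aurora kinase (83.9 to 30.4 CPM), and Pttg1, the separase inhibitor securin (4522 to 3056 CPM). The gains included Bub1, a checkpoint kinase (16.8 to 49.0 CPM), Ttk, the checkpoint kinase MPS1 (307 to 638 CPM), Aurkb, the mitotic Aurora kinase (9.84 to 29.8 CPM), and Fzr1, an activator of the anaphase-promoting complex (12.1 to 57.6 CPM). Ccnb1, the cyclin partner of Cdk1, had 822, 961 and 754 CPM at MII and 1685, 1371 and 981 CPM at L1C (0.67 ± 0.18, adjusted p = 0.00589), and the lowest L1C library was close to the highest MII library.

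Of 26 genes of maternal mRNA decay 12 were lower and 7 were higher (median -0.32, and -0.70 over the 7 without overlap and without a copy). Dcp1a, a cofactor of the decapping enzyme, had 2323, 2152 and 2086 CPM at MII and 629, 652 and 721 CPM at L1C (-1.71 ± 0.11, adjusted p = 2.33e-08), and Edc4, the scaffold of decapping, fell from 1033 to 344 CPM. Dcp2, the decapping enzyme, went the other way, with 79.2, 88.4 and 93.7 CPM at MII and 258, 218 and 217 CPM at L1C (1.41 ± 0.13, adjusted p = 1.07e-06). Of the deadenylase CCR4-NOT, Cnot8, Cnot3, Cnot11 and Cnot6l fell, Cnot1, Cnot2 and Cnot10 (3.81 to 11.7 CPM) rose, and Cnot6, Cnot7 and Cnot9 did not pass the test. Btg4, the adapter that brings CCR4-NOT to maternal mRNAs, fell from 2002 to 1518 CPM (-0.40 ± 0.11, adjusted p = 0.00524).

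Genes of mRNA storage and poly(A)-dependent translation had 11 of 22 members lower and 7 higher (median -0.40, and -0.64 over the 10 without overlap and without a copy). Zar1, which holds stored mRNAs in the oocyte, had 2014, 2286 and 2291 CPM at MII and 486, 804 and 660 CPM at L1C (-1.76 ± 0.16, adjusted p = 7.04e-07). Patl2, an oocyte partner of translational repressors, fell from 97.4 to 28.8 CPM and Cpeb1, which binds the cytoplasmic polyadenylation element, from 577 to 373 CPM. Pabpc1l, the poly(A)-binding protein of the early embryo, had 24.3, 22.4 and 19.8 CPM at MII and 103, 135 and 152 CPM at L1C (2.55 ± 0.16, adjusted p = 1.65e-08). Eif4e, the cap-binding protein, rose from 107 to 238 CPM.

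Because tail length may enter the measurement, 15 mRNAs known for tail lengthening in maturation or after fertilization were listed apart. Of these 8 were lower and 2 were higher (median -0.40). The motif of the cytoplasmic polyadenylation element, TTTTAT or TTTTAAT on the transcript strand, was searched in the last 150 bases of the transcript, and 8 of the 15 hold it. Of those with the motif 5 were lower and 1 was higher, and of the 7 without it 3 were lower and 1 was higher. The 30 bases around the motif nearest to the end are given for 6 of them in GRCm38, 5′ to 3′ on the strand of the gene, with the motif in capitals, because these letters are the part that the shares below count.

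Ccnb1, chr13:100778770-100778799 (minus strand): ttgctgTTTTAATttatacatctgatatca
Dcp1a, chr14:30527013-30527042 (plus strand): atatatttTTTTAATaaaatttcaaaacca
Btg4, chr9:51119801-51119830 (plus strand): aaatccctTTTTATgtctttttaaaagttt
Plat, chr8:22782748-22782777 (plus strand): tatttataTTTTAATctattttagttttta
Cnot7, chr8:40493036-40493065 (minus strand): ttaaggtacaTTTTATatcaataaaaatac
Spin1, chr13:51152477-51152506 (plus strand): taagtaatTTTTATaattatgatgtaactc

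Among the carriers of the motif Ccnb1 was higher. Dcp1a, Btg4, Plat, the gene of tissue plasminogen activator (1057 to 353 CPM), Oosp1, an oocyte-secreted protein (247 to 110.3 CPM), and Orc6, of the origin recognition complex (223 to 168 CPM), were lower, and Cnot7 and Spin1 did not pass the test. Spin1, a histone reader of the oocyte, had 6849, 6416 and 6063 CPM at MII and 7467, 5863 and 6037 CPM at L1C, and the stages overlapped (log2 change 0.00 ± 0.13, adjusted p = 0.999).

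Over the 15063 mRNAs tested with an annotated 3′ UTR, 22.4% hold this motif in the last 150 bases. It was held by 28.4% of the lower mRNAs and by 17.8% of the higher mRNAs. AATAAA, the polyadenylation signal, was held by 64.1% of all, 69.8% of the lower and 58.7% of the higher mRNAs. TGTANATA, the motif of Pumilio proteins, was held by 5.99% of all, 6.82% of the lower and 5.14% of the higher mRNAs. TATTTAT, the core of AU-rich elements, was held by 5.64% of all, 6.32% of the lower and 4.97% of the higher mRNAs. All 4 motifs were thus somewhat more frequent among mRNAs that were lower. For TATTTAT the gap was small without overlap and without a copy, at 5.34% of the lower and 5.06% of the higher mRNAs. However, the share that is lower also went up with the level at MII. Among mRNAs with at least 100 CPM at MII, 69.9% of the 601 with TTTTAT or TTTTAAT and 64.8% of the 1410 without it were lower. The same shares were 67.9% with and 62.4% without AATAAA, 69.5% with and 66.0% without TATTTAT, and 62.6% with and 66.6% without TGTANATA. A match is a description of the letters in this window and not of a working site.

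Of 32 genes of RNA polymerase II, pausing and general factors 20 were lower and 6 were higher (median -0.64). Of the 13 without overlap and without a copy 5 were lower and 3 were higher (median -0.12). Polr2d, a polymerase subunit, fell from 164 ± 18.8 to 48.8 ± 6.84 CPM (SD, n = 3) and Polr2a, the largest subunit, from 26.1 to 13.9 CPM. Nelfe, a subunit of the pausing factor NELF, rose from 2.65 to 8.94 CPM, whereas Nelfa, Nelfb and Nelfcd fell. Of 66 splicing genes 32 were lower and 13 were higher (median -0.46), with Snrpa1 (105 to 35.5 CPM) and Sf3b1, a core of the U2 particle (525 to 231 CPM), among the losses and Sf3b3, of the same particle, among the gains (31.7 to 119 CPM). Of 28 nuclear pore genes 16 were lower and 5 were higher (median -0.39, and -0.89 over the 12 without overlap and without a copy), and of the 5, Nup210 holds a copy of the repeated element. Ndc1, which anchors the pore in the membrane, fell from 117 to 27.8 CPM.

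Of 55 initiation factor genes 28 were lower and 11 were higher (median -0.51, and -0.25 over the 25 without overlap and without a copy). Eif5b, which joins the ribosomal subunits, fell from 374 ± 67.3 to 95.9 ± 8.39 CPM, and Eif4h, a cofactor of the helicase eIF4A, rose from 12.3 ± 0.770 to 63.8 ± 11.5 CPM. Of 47 proteasome genes 19 were lower and 12 were higher (median -0.12, and -0.32 over the 26 without overlap and without a copy), with Psma7 falling from 1380 to 453 CPM and Psmc2 rising from 12.4 to 47.6 CPM. Of 46 genes of ribosome biogenesis and the nucleolus 20 were lower and 14 were higher (median -0.28), with Polr1a, the largest subunit of RNA polymerase I, going from 75.1 to 21.3 CPM and Noc3l, a nucleolar protein, from 10.0 to 33.9 CPM. Of 83 cytosolic ribosomal protein genes 17 were lower and 20 were higher (median 0.02, and -0.03 to 0.41 without 1 library), and 10 were higher with only the MII and L1C libraries in the fit. They summed to only 209 ± 36.3 CPM at MII and 162 ± 12.7 CPM at L1C, these genes have many processed pseudogenes with near-identical sequence, and their values, such as those of Rpl10l (10.9 to 2.89 CPM) and Rpl17 (8.64 to 28.0 CPM), are uncertain.

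Of 35 DNA replication genes 19 were lower and 6 were higher (median -0.43, and -0.27 over the 18 without overlap and without a copy). Mcm2, Mcm3, Mcm4, Mcm5 and Mcm7 of the replicative helicase were lower, Mcm2 with 764 CPM at MII and 434 CPM at L1C, and Mcm6 did not pass the test. Fen1, the flap endonuclease, rose from 5.28 to 45.5 CPM but overlaps another gene, and Gins4, a subunit of the active helicase, rose from 10.7 to 43.5 CPM without an overlap. Of 35 replication-dependent histone genes tested 11 were lower and 4 were higher, and 32 of the 67 listed were not tested. Without MII replicate 2, or with only the 6 libraries, 2 were higher. Hist2h3b went from 27.3 to 6.74 CPM and Hist1h2ap from 0.586 to 3.54 CPM, and both overlap another gene. Of 15 genes of DNA methylation and demethylation 8 were lower, among them Uhrf1, Dnmt3a, Tet3 and Trim28, and 3 were higher (median -0.53). Of the 6 without overlap and without a copy 3 were lower and 2 were higher (median -0.01). Dnmt1, the maintenance methyltransferase, had 183 CPM at MII and 194 CPM at L1C and did not pass the test.

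The m6A machinery, the subject of the series, had 8 of 18 members lower and 2 higher (median -0.23, and -0.70 over the 10 without overlap and without a copy). Of the writer complex Mettl14, Virma, Zc3h13 and Rbm15 fell, and Mettl3 (116 and 99.3 CPM) and Wtap (155 and 203 CPM) did not pass the test. Neither eraser, Fto and Alkbh5, passed the test. Of the readers Igf2bp2 fell from 432 to 133 CPM, Igf2bp3 from 354 to 153 CPM and Ythdf2, which brings m6A-marked mRNAs to decay, from 97.4, 90.8 and 89.1 CPM to 51.6, 55.1 and 52.5 CPM (-0.80 ± 0.12, adjusted p = 6.96e-05). Ythdc2 rose from 87.2 to 722 CPM and its span holds a copy of the repeated element. Ythdf1 rose from 1.81 to 2.74 CPM, a call that was lost with DESeq2, with only the 6 libraries and without L1C replicate 1 or 2 or MII replicate 1 or 3, while Ythdf3 and Ythdc1 did not pass the test.

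Of 25 early embryonic transcription factor genes tested 8 were higher and 9 were lower, and 5 were higher with only the MII and L1C libraries in the fit. Scarce members could pass the filter on low counts through L2C. The gains were of scarce RNAs, such as Tead4 (0.149 to 1.29 CPM) and Klf5 (0.0999 to 0.498 CPM), and Nanog went from 1 count to 21 counts in all, a ratio of 20.1 (95% interval 3.23 to 831, counting error only). The losses were of maternal RNAs, such as Esrrb (96.0 to 31.9 CPM), Sall4 (610 to 229 CPM) and Pou5f1 (278 to 186 CPM). Of 16 heat shock genes 4 were higher and 5 were lower. Hspa1a, an early transcript of the mouse embryo, was at 0 in all MII libraries and at 1.48, 0.696 and 0.755 CPM at L1C, at least 6.54-fold higher. Hsp90aa1 fell from 183 to 48.8 CPM. Of 19 genes of p53 and cell death 8 were lower, among them Mdm2 and Bcl2l10, and 4 were higher, among them Pmaip1, the cell death gene Noxa (0.279 to 1.75 CPM). The count lower was 5 without MII replicate 2 or 3, and the count higher was 2 without L1C replicate 1. Of 91 nuclear genes of oxidative phosphorylation 31 were lower, among them Ndufa13 (24.1 to 9.75 CPM), and 18 were higher, among them Ndufaf3 (1.11 to 4.92 CPM), with a median of -0.16.

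Of the 13 mRNAs of mitochondrial DNA, 10 of which overlap another gene, 6 were higher and none was lower (median 0.80). mt-Cytb, cytochrome b, had 239, 282 and 238 CPM at MII and 682, 518 and 386 CPM at L1C (1.06 ± 0.21, adjusted p = 0.000583). The list summed to 695 to 945 CPM in MII libraries and to 1024 to 1889 CPM in L1C libraries, which differed among themselves more than the MII libraries did. No mitochondrial mRNA was lower in the other fits, except 1 of the 13 without L1C replicate 1.

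Of 7 Y-linked genes tested of 10 listed 5 were higher, 1 of them Kdm5d with a copy of the repeated element, and none was lower, and the list summed to 0.545 ± 0.307 CPM at MII and 3.41 ± 0.122 CPM at L1C. With only the MII and L1C libraries in the fit 2 were higher, and with L2C in it, where the list summed to 40.1 CPM, a gene could pass the filter on low counts through that stage. Usp9y, a Y-linked deubiquitinase, had 1 count in all at MII and 67 counts at L1C, a ratio of 64.1 (95% interval 11.1 to 2569, counting error only). Oocytes carry no Y chromosome, so the level at MII serves as background. Of 16 sperm transcripts 6 were tested, none was higher and 1, Odf2, was lower, and 1 was higher without MII replicate 1. The list summed to 286 ± 9.15 CPM at MII and 185 ± 27.1 CPM at L1C, of which Odf2, a centrosome gene too, had 276 and 175 CPM, and Prm1, Smcp and Gapdhs were at 0 in all 6 libraries. Of 20 cumulus and granulosa cell markers 13 were tested, with 5 higher and 5 lower. The count higher was 3 without MII replicate 2 or 3 or L1C replicate 2, and the count lower was 3 without MII replicate 2 or L1C replicate 3. The list summed to 77.7 to 90.9 CPM at MII and 63.6 to 68.4 CPM at L1C. Ptx3 was at 0 in all 6 libraries, Cyp11a1 of steroid synthesis fell from 13.9 to 1.57 CPM, and Amhr2 rose from 0.708 to 1.72 CPM. Of 14 blood, immune and oviduct markers 9 were tested, with 1 higher, or 2 without L1C replicate 1, and 3 lower. Hba-a1, a globin, fell from 2.23 to 0.585 CPM while Cd52 rose from 1.34 to 3.43 CPM. Their part in the other results was not tested.

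Genes known from the 2-cell embryo were already higher at L1C. Of 23 such genes tested 18 were higher and 1, Sp110, was lower, with a median log2 change of 4.97, or 4.65 with genes at 0 in the oocyte set to their lower bound. The count lower was 2 with DESeq2 or without L1C replicate 1, and 0 over the 21 without overlap and without a copy. A gene could pass the filter on low counts through any of the 3 stages. Zscan4d, a zinc finger gene of the 2-cell program on chromosome 7, had 0.991, 1.15 and 1.47 CPM at MII and 40.3, 32.1 and 26.7 CPM at L1C (4.79 ± 0.27, adjusted p = 4.71e-09). Zfp352 had 0.172, 0.250 and 0.451 CPM at MII and 10.7, 8.54 and 7.49 CPM at L1C (4.97 ± 0.31, adjusted p = 1.43e-08). The stages did not overlap in either gene. All 9 annotated Zscan4 genes rose, and summed to 31.5 ± 0.651 CPM at MII, 152 ± 34.6 CPM at L1C and 456 ± 96.2 CPM at L2C (SD, n = 3). All 5 tested Usp17l genes rose, and summed to 0.674 ± 0.0680, 63.7 ± 7.19 and 646 ± 55.5 CPM. Tdpoz genes were barely present at L1C, with sums of 0.336 ± 0.157, 1.68 ± 0.555 and 241 ± 18.1 CPM, and Tcstv1 and Tcstv3 did not pass the test. Of these 5 families Dux had the higher level at L1C and the other 4 at L2C. Of the 7 Obox homeobox genes 2 were higher and 2 were lower, with Obox6 going from 0.0707 to 1.13 CPM, and Obox1 and Obox3 hold a copy of the repeated element.

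Minor ZGA genes were defined by a mean TPM at L1C of more than 5 times that at MII, the ratio named in the methods of the study. Here 0.1 was added to both means, which those methods do not state. With nothing added the rule took 8206 genes. With 0.1 added it took 2023 of 30738 genes with a TPM above 0 in any of the 6 libraries (6.58%). The reverse ratio above 5 took 666 genes (2.17%). Of the 2023 genes 567 are protein-coding, 681 are processed pseudogenes and 200 are lincRNAs. Many were of very low level, since 1409 were at 0 in all MII libraries and only 917 had enough counts to be tested, of which 849 were called higher. In all 567 overlap another gene and 167 hold a copy of the repeated element.

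Without overlap and without a copy 1390 genes remained, of which 319 are protein-coding. Of these 1390, 369 were also called higher and had at least 1 TPM at L1C, among them 175 protein-coding genes. In 142 of the 369 the annotation has 1 exon only, and 133 had a lower mean TPM at L2C than at L1C. Examples with several exons are Derl3, of protein export from the endoplasmic reticulum (10.6 to 73.8 CPM), Calm2, a calmodulin gene (6.01 to 77.5 CPM), Msx1, a homeobox factor (0.577 to 20.7 CPM), and Gadd45g, a stress response gene (0.202 to 6.11 CPM). These 4 were chosen after their values were seen, and none of them overlapped between the stages.

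Of the 369 genes 84 lie in 10 windows of 1 Mb that hold at least 5 each, and whether this is more than for other genes was not tested. Several of these windows hold tandem gene families, and 22 of the 369 genes had values equal to those of another, so members cannot be told apart there. The window with the most genes is on chromosome 7 (chr7:15139546-15839678), with 14 Obox genes and pseudogenes, and its genes summed to 0.0874 ± 0.0708 CPM at MII, 41.4 ± 3.03 CPM at L1C and 452 ± 66.4 CPM at L2C. The window on chromosome 12 (chr12:87480108-87895804, 11 genes) summed to 0.323 ± 0.0890, 35.7 ± 4.76 and 911 ± 23.7 CPM. A window on chromosome 7 with 6 Zscan4 genes and pseudogenes and 2 other genes, Gm18204 and Gm6909 (chr7:11005745-11614112), summed to 1.91 ± 0.314, 99.3 ± 20.7 and 720 ± 135 CPM, and Gm18204 had 327 CPM of the L2C sum and 2.57 CPM at L1C. In these 3 windows the sum was higher at L2C than at L1C, but not in every member. In the Obox window Obox6 and Obox3-ps5 had 1.13 and 0.195 CPM at L1C and 340.5 and 102.7 CPM at L2C, whereas the 12 Obox4 pseudogenes all had a lower mean at L2C, such as Obox4-ps22 with 9.80 CPM at L1C and 1.16 CPM at L2C.

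Of the other 7 windows 3 had a higher sum at L2C than at L1C by a wide margin. They lie on chromosome 10 (chr10:118238372-118354105, 36.4 and 631 CPM), chromosome 2 (chr2:83353157-83993045, 10.7 and 467 CPM) and chromosome 3 (chr3:94090818-94660115, 3.88 and 174 CPM). The windows on chromosome 5 (chr5:94076385-94965694, 10 genes, and chr5:95106704-95746617, 9 genes) summed to 0.501 ± 0.148 and 0.625 ± 0.213 CPM at MII, to 56.9 ± 9.84 and 36.2 ± 6.83 CPM at L1C, and to 48.5 ± 6.78 and 39.5 ± 10.7 CPM at L2C. A window on chromosome 1 (chr1:151182537-151211072, 5 genes, among them 3110040M04Rik) had 2.37 ± 0.104, 36.2 ± 6.34 and 22.6 ± 1.26 CPM. Another window on chromosome 10 (chr10:100335676-100372133, 5 genes) had 0.129 ± 0.224, 22.5 ± 2.78 and 16.1 ± 1.59 CPM. All genes in these 10 windows were taken because they were higher at L1C than at MII. The rise of the sums from MII to L1C therefore follows from that choice.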

How the data were processed

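Input RNA of MII oocytes and of L1C and L2C embryos was sequenced. The authors trimmed the reads, quantified them with kallisto on 1 target per gene that covers the whole gene span of GRCm38, and deposited estimated counts per gene and TPM values. The labels name a stranded total RNA kit and the methods an unstranded Smart-seq2 protocol with an oligo-dT primer, and whether kallisto used strand is not given in the sources used here.

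The deposited estimated counts were rounded and tested with edgeR 4.0.16 in R 4.3.3 (TMM, filterByExpr by stage, quasi-likelihood test, Benjamini-Hochberg adjustment over all 19903 genes tested). All 9 input libraries entered 1 fit, and L1C was compared with MII. The script was tested on simulated data. DESeq2 1.42.0 was an alternative. Intervals cover counting error only. Genes were matched to GENCODE M21 by identifier, and copies of the repeated element were found with BLASTN 2.17.0+. The deposited TPM values served the minor ZGA ratio. Genes named were the 5 mRNAs with the smallest p and the 3 with the largest log2 change in each direction, 2 genes of other types in each direction, and in each list the member with the smallest p in each direction. The first 3 sets were taken from genes with an adjusted p under 0.05, a log2 change over 1 in size, stages that do not overlap and at least 10 CPM at the higher stage. Other genes named were chosen after their values were seen. The members and lists were chosen with earlier results of these data known. Immunoprecipitated and knockdown libraries were not used here. One gene that the rule for named genes takes is not reported here.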

Additional observations from a re-analysis of the deposited data

Results flagged for a closer look

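One result lies outside the comparison of MII with L1C. In the L2C inputs the genes that hold a copy of the repeated element of Gm37110 summed to 192642 CPM on average, from 189280, 194065 and 194580 CPM in the 3 libraries, above the 50586 to 53525 CPM of the MII inputs and below the 261787 to 282931 CPM of the L1C inputs. The difference between L1C and L2C was not tested.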

How the results depend on the processing

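Deviations of same-numbered libraries correlated at 0.161, 0.189 and -0.030, and those of unlike numbers at -0.327 to 0.205. With 3 replicates per stage these values depend on each other, so whether replicate numbers pair the libraries cannot be told. A replicate block gave 6071 genes higher and 4779 lower. The block with only the 6 MII and L1C libraries gave 5042 and 4735, those libraries without it 5165 and 4698, DESeq2 5991 and 5118, library size scaling 6657 and 4569, no filter on low counts 7161 and 5206, and leaving out genes with a copy, an alternative chosen after seeing the data, 5970 and 4748. Leaving out 1 library at a time gave 5758 to 6106 higher and 4346 to 4638 lower, and a log2 change over 1 in size left 2225 lower. The 71 genes that the rule for named genes takes kept their direction and their side of the threshold in all 981 alternative values. They were taken for a small p or a large change. This does not cover the other genes named, of which Ythdf1 lost its call in several settings. Without a filter 20.6% of lincRNAs were higher and 2.64% lower, 9.37% and 4.59% of TEC genes, and 6.06% and 6.96% of processed pseudogenes, since more genes were counted. TEC genes lower were 26.9% with only the 6 libraries, 27.6% with the block too, 2.06% of those without overlap (44.3% higher), and 9.27% to 16.6% without 1 library, lowest without MII replicate 3. The median of the metaphase II arrest list turned to 0.24 without overlaps and copies. That of the sperm list turned to 0.23 without a filter, to 0.14 without overlaps and copies, and ranged from -0.25 to 0 without 1 library, at 0 without MII replicate 1. Small medians of other lists changed sign too without overlaps and copies. They went from -0.04 to 0.19 for early embryonic transcription factors and from -0.05 to 0.29 for cumulus and granulosa markers. For p53 and cell death they went from -0.08 to 0.01, and for cytosolic ribosomal proteins from 0.02 to -0.02. Minor ZGA genes numbered 464 with 1 added to the TPM, 8206 with nothing added and 1325 with at least 1 TPM at L1C. In the last 300 bases 27.5% of higher mRNAs held TTTTAT or TTTTAAT, 7.89% TGTANATA and 7.66% TATTTAT, and 9.83% of lower mRNAs held TATTTAT, since the window was longer. The cause of the other changes was not tested.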
